A study of Mus musculus with 4 samples.

Results

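After ovariectomy, the vaginal epithelium of C57BL/6 mice held cells with transcripts of keratins 8, 18 and 19 and of the secretory and luminal genes Ltf, Pigr and Gabrp. They were picked in the 2 libraries from ovariectomised mice (OVX) by a gate: at least 200 detected genes, at most 20% mitochondrial UMIs (unique molecular identifiers, each standing for 1 captured transcript), at least 2 UMIs summed over those 6 genes, and at most 2 UMIs over 10 genes of dividing cells. The 10 genes were Mki67, Top2a, Ube2c, Birc5, Cdk1, Ccnb1, Cenpf, Nusap1, Prc1 and Tpx2. The gate passed 411 of the 3480 OVX cells kept, 160 in OVX library 1 and 251 in OVX library 2, out of 8446 cells kept in the whole series. The values of the 16 gate genes chose the cells, so those values are a description and carry no test.

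The series used Drop-seq on 4 libraries, 2 named OVX from surgically ovariectomised mice and 2 named WT, for which no treatment is named. Each library is described as made from 5 pooled mice, and the labels used here give no age, time since surgery or oestrous stage. The labels leave unclear whether duplicate libraries were 2 pools of mice or 1 pool run again, so p-values speak only of libraries, whose spread may be technical. Where the library was a block, the spread between libraries was taken out. Those p-values rest on how alike the gap between classes was in the 2 libraries, with variation shared over genes. Kept libraries held 798916 UMIs in OVX library 1, 1636888 in OVX library 2, 5830417 in WT library 1 and 1930040 in WT library 2. The 2 OVX libraries shared 15 barcodes of 12 bases, other pairs of libraries shared 2 to 6, and the gated cells of the 2 OVX libraries shared 0. Doublets were not removed, and a setting without the deepest cells is given with the alternatives.

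The vaginal epithelium is stratified and cornifies under oestrogen, with basal cells marked by Krt5 and Krt14 and upper layers that build a cornified envelope. Without oestrogen it thins, and a superficial layer of columnar or mucous cells can take the place of the cornified one. Krt8 and Krt18 pair into the filaments of simple epithelia, Krt19 is a further simple keratin, Ltf encodes the iron-binding defence protein lactoferrin, Pigr the receptor that carries polymeric antibodies across an epithelium, and Gabrp a subunit of the GABA-A receptor found in several epithelia.

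Luminal markers that the gate did not use were mostly higher in these cells than in the other OVX cells, some of them seen in few cells. The gel-forming mucins of mucous cells were hardly seen. Of 11 such luminal markers 10 could be tested with edgeR (described below), and 8 were higher in gated cells than in the other OVX cells, namely Krt7, Cldn3, Cldn7, Muc1, Agr2, Wfdc2, Epcam and Ehf, with 0 lower and a median log2 fold change of 1.33. Of all 7056 genes tested 4.76% were higher. The call of Krt7 was lost in 9 of the alternative settings, with edgeR adjusted p from 0.0710 without the deepest cells to 0.847 without a library block and a DESeq2 adjusted p of 0.753, and that of Ehf was lost after thinning each cell to 400 UMIs (edgeR adjusted p = 0.133) and without the block (0.819). Over both libraries gated cells held 5 UMIs of Muc5b, 1 of Muc5ac and 0 of Muc2. The cells also kept basal keratin transcripts, with at least 2 UMIs of Krt5, Krt14 and Krt15 together in 74.4% of gated cells in OVX library 1 and 82.9% in OVX library 2, against 73.6% and 86.1% of the other OVX cells. They are therefore called gated cells here, and the other kept OVX cells with at most 2 dividing-cell UMIs, 1404 in library 1 and 1613 in library 2, are called other OVX cells.

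In OVX library 1 the gate passed 10.2% of kept cells (exact 95% binomial interval 8.72 to 11.8%) and in OVX library 2 13.2% (11.7 to 14.8%). The same gate passed 16 of 2979 kept cells in WT library 1, or 0.537% (0.307 to 0.871%), and 7 of 1987 in WT library 2, or 0.352% (0.142 to 0.724%). The mean share was 11.7 ± 2.11% in OVX and 0.445 ± 0.131% in WT (SD, n = 2 libraries each). The two-sided exact permutation test gave p = 0.333, the smallest value that 2 libraries against 2 allow. The gate genes were chosen with their levels in these libraries known, so the gap describes the libraries and is no independent evidence. These intervals cover counting error only.

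**Figure D1:**
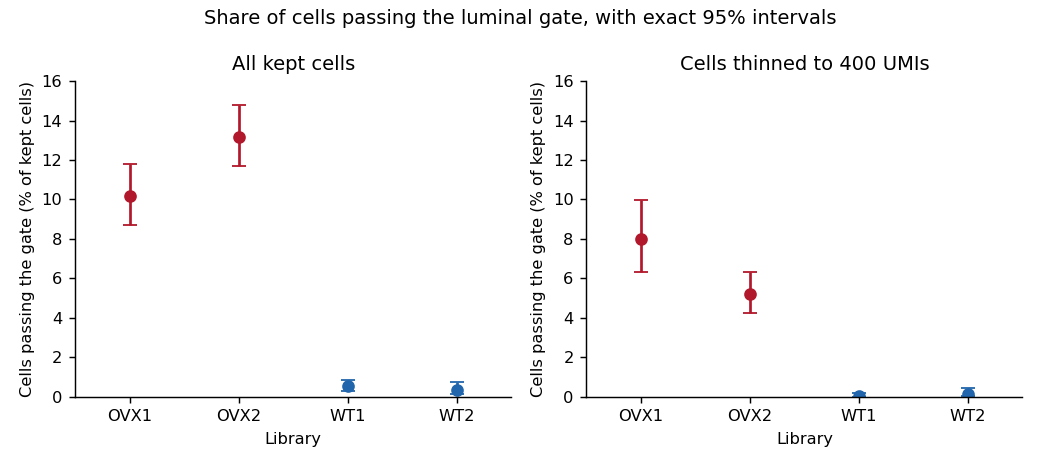
Share of kept cells passing the gate in each library, as a percent, with exact 95% binomial intervals as bars. The left panel has all kept cells and the right panel has cells thinned to 400 UMIs; both OVX libraries lie above both WT libraries in each, and the order of the 2 OVX libraries turns round after thinning.

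Depth moved with the gate. A cell with more UMIs has more chances to reach 2, but the source of the gap in depth was not tested. The median cell had 480.5 detected genes in gated cells of OVX library 1 and 661 in those of library 2, against 321 and 488 in the other OVX cells. The median mitochondrial share was 8.51% and 8.97% in gated cells, against 9.06% and 9.86% in the other OVX cells. With each cell thinned to 400 UMIs and shallower cells left out, the gate passed 8.02% of 923 cells in OVX library 1 and 5.20% of 1864 in library 2, against 0.0336% of 2979 in WT library 1 and 0.154% of 1944 in WT library 2. The 2 OVX libraries thus changed places, while both stayed above both WT libraries. Cells too shallow for this were lost unevenly. By the gate on unthinned counts they were 25 gated and 625 other cells in OVX library 1, against 1 and 42 in library 2. The part of this loss in the change of order was not tested.

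The few WT cells that passed were of another make-up. Of their gate UMIs 28 of 36 in WT library 1 and 11 of 15 in WT library 2 were Gabrp, and 0 were Krt8. Their Krt13, a keratin of the upper layers of mucosal epithelia, stood at 8609 CPM (the gene's UMIs scaled to all UMIs of that class of cells in that library) in WT library 1 and 2006 in WT library 2, against 1631 and 469 CPM in the other WT cells.

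The levels of the gate genes follow, in CPM. Krt18 had 1592 CPM in gated cells of OVX library 1 and 1001 in library 2, against 191 and 152 CPM in the other OVX cells. Krt8 had 385 and 391 CPM in gated cells, against 54.9 and 45.1 CPM in the other OVX cells. Krt19 had 753 and 320.2 CPM in gated cells, against 22.3 and 21.0 CPM in the other OVX cells. Krt8 was thus alike in the gated cells of the 2 libraries, while Krt19 was lower in library 2. Ltf had 437 and 519 CPM in gated cells, against 0 and 3.11 CPM in the other OVX cells. Pigr had 154 and 192 CPM in gated cells, against 2.97 and 2.33 CPM in the other OVX cells. Gabrp had 967 and 512 CPM in gated cells, against 71.3 and 52.1 CPM in the other OVX cells. The other OVX cells hold at most 1 UMI of the 6 genes by the rule. In WT cells with at most 2 dividing-cell UMIs, Gabrp was the highest of the 6 with 65 UMIs in library 1 and 31 in library 2, and the other 5 lay between 0 and 7.36 CPM.

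Among the gate genes Krt18 was the one seen in most gated cells, with a UMI in 71.3% of them in OVX library 1 and 72.9% in library 2. Gabrp followed with 50.6% and 41.8%, Krt19 with 37.5% and 29.5%, Krt8 with 22.5% and 36.3%, Ltf with 11.9% and 18.7% and Pigr with 8.13% and 12.7%. These shares depend on depth and on the gate itself. Keratins alone carried 41.3% and 41.4% of the gated cells over the threshold, both kinds of gene were present in 50.6% and 52.2%, and Ltf, Pigr or Gabrp alone in 8.13% and 6.37%. Most cells stood close to the threshold: 88 of 160 in library 1 and 127 of 251 in library 2 had exactly 2 gate UMIs, while the highest sums were 26 and 30. Just outside it were 231 and 355 cells with 1 gate UMI.

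UMIs of the keratins and of the secretory genes of the gate overlapped in a part of the cells. In cells picked by at least 2 keratin UMIs alone, 33.3% of 99 in OVX library 1 and 40.2% of 174 in library 2 held a UMI of Ltf, Pigr or Gabrp, against 5.10% of 1236 and 6.68% of 1348 cells with no keratin UMI. In cells picked by at least 2 UMIs of Ltf, Pigr and Gabrp, 66.7% of 39 and 77.8% of 72 held a keratin UMI, against 17.4% of 1420 and 23.4% of 1643 cells with none of the 3. The picked cells were deeper, with medians of 619 and 1061 UMIs for the keratin choice against 409 and 685, and all 6 genes were proposed together, so these shares are a description.

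The sequences just upstream of the gate genes are shown because these genes chose the cells. They are RefSeq promoters of build GRCm38.p6, read 5′ to 3′ on the gene's strand, which run to the start of the gene in GENCODE vM21 or of the RefSeq transcript, whichever comes first. Krt8 lies on the minus strand of chromosome 15 and its stretch is chr15:102004483-102004592. Krt18, on the plus strand close by, has chr15:102027966-102028179. Ltf, on the plus strand, has chr9:111019042-111019270, and Pigr, also on the plus strand, has chr1:130826434-130826683. Cldn3, the claudin gene with the highest fold change among the tight junction genes below and no gate gene, is on the plus strand with chr5:134985964-134986213. Capitals mark AGGTCA, a core site that nuclear receptors can bind.

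Krt8: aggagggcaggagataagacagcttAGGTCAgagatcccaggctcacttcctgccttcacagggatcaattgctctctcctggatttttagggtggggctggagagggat
Krt18: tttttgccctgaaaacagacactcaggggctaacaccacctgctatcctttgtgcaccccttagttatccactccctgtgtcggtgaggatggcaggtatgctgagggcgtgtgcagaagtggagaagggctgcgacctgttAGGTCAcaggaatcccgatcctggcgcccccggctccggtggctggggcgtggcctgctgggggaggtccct
Ltf: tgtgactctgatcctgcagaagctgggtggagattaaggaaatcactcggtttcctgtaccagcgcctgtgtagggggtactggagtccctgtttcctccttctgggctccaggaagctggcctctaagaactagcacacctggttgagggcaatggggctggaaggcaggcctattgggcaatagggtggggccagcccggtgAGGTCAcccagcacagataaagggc
Pigr: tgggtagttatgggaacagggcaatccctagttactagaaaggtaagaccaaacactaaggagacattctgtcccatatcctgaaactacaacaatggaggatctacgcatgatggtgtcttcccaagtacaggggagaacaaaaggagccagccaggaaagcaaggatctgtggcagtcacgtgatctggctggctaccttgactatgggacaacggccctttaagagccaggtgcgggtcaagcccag
Cldn3: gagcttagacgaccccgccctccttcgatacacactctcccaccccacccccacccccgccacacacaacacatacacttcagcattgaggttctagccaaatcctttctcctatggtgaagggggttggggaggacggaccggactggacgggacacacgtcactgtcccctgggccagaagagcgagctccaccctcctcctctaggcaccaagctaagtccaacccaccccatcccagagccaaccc

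AGGTCA was searched on both strands over 250 bases before each RefSeq start and was found for Krt8, Krt18 and Ltf, from base -225, -108 and -46 counted from that start, and in 14.0% of all 32851 promoters. It was not found in this window of Pigr, Gabrp, Cldn3 or Agr2. Postn, a gene outside the gate described below, held it from base -138 of 1 of its 2 promoters. The palindrome of oestrogen receptors, GGTCA and TGACC with any 3 bases between them, is held by 0.0639% of all promoters in that window, the forkhead motif TGTTTAC by 3.17% and the AP-1 motif TGANTCA by 6.75%, and none of the 3 was found there for those 8 genes. A match of letters is not a bound site, and the motifs were chosen after the expression values had been seen. By symbol, 8 of 11 genes looked for had a promoter.

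Gated cells were then set against the other OVX cells of the same library, with UMIs summed per library and class and the library as a block. Of 7056 genes tested 603 passed an edgeR adjusted p of 0.05, which is 8.55%, with 336 higher (4.76%) and 267 lower (3.78%) in gated cells. The median log2 fold change of all tested genes was -0.02. Counts of called genes in the lists below are to be read beside these shares. The gate genes were picked with results of these libraries known, and transcripts that go with them share that choice, so the p-values speak of repeatability over the 2 libraries and not of independent support. Without the library block 50 genes passed, all of them among the 603, and with DESeq2 134. Of the 68 named genes that passed, 42 did not pass without the block, Krt14 and Wfdc2 among them, and 19 of the 65 with a DESeq2 value did not pass there; the direction was kept in all of these. After thinning to 400 UMIs 191 passed, and 17 of the 54 named genes with a value did not, again with the direction kept. In that setting the gate was applied again to the thinned counts. It passed 74 cells in OVX library 1 and 97 in library 2, and cells that no longer reached it counted as other cells. Calls lost after thinning thus reflect both lower depth and a changed set of cells. With no gene filter 675 passed, and the split turned to 223 higher and 452 lower, with a median log2 fold change of -0.43 over all genes tested.

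Among called genes with at least 50 CPM in a class, the highest by fold was Agr2, which encodes a protein disulphide isomerase of mucus-secreting cells (chromosome 12, 35992907 to 36004087). Its level was 103 CPM in gated cells of OVX library 1 and 53.9 in library 2, against 5.94 and 2.33 CPM in the other OVX cells. Few gated cells held it: without thinning an Agr2 UMI was seen in 6.88% of them in library 1 and 4.38% in library 2. The same shares were 0.214% and 0.186% in the other OVX cells. Gated cells were above the other cells in both libraries, by 4.21 ± 0.56 on the log2 scale (fold change ± SE; edgeR adjusted p = 2.09e-07). Cxcl17, a chemokine of mucosal surfaces (chromosome 7, 25400053 to 25412886), had 608 and 327 CPM in gated cells, against 29.7 and 36.6 CPM in the other OVX cells (log2 fold change 3.59 ± 0.22, edgeR adjusted p = 4.80e-17). Its gene overlaps 4732471J01Rik, whose reads cannot be told apart from it where counting ignored strand. Arg1, the arginase that splits arginine, had 128 and 60.7 CPM in gated cells, against 5.94 and 4.67 CPM in the other OVX cells (3.95 ± 0.52, edgeR adjusted p = 1.37e-07).

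Cldn3 (chromosome 5, 134986214 to 134987472) had 179.8 and 128 CPM in gated cells, against 20.8 and 10.1 CPM in the other OVX cells, a log2 fold change of 3.37 ± 0.36 (edgeR adjusted p = 6.72e-10). Its span overlaps Wbscr25. Postn, which encodes the matrix protein periostin (chromosome 3, 54361109 to 54391037), had 274 and 192 CPM in gated cells, against 44.5 and 10.9 CPM in the other OVX cells (3.29 ± 0.29, edgeR adjusted p = 5.92e-12). The next genes by fold were Lrrc26, an accessory subunit of potassium channels, at a log2 fold change of 3.26, Fam174b at 3.05, the scaffold gene Iqgap2 at 2.96, the chaperone clusterin Clu at 2.81, Smim6 at 2.81, the carboxylesterase Ces1e at 2.78, the ion pump regulator Fxyd4 at 2.76, the sphingomyelin synthase Sgms2 at 2.73, Pglyrp1 at 2.72 and Cwh43 at 2.72. Each of these was higher in gated cells in both libraries. Fxyd4, Sgms2, Pglyrp1 and Cwh43 did not pass without the library block, with edgeR adjusted p from 0.0613 for Sgms2 to 0.123 for Pglyrp1. DESeq2 gave Pglyrp1 an adjusted p of 0.0695.

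**Figure D2:**
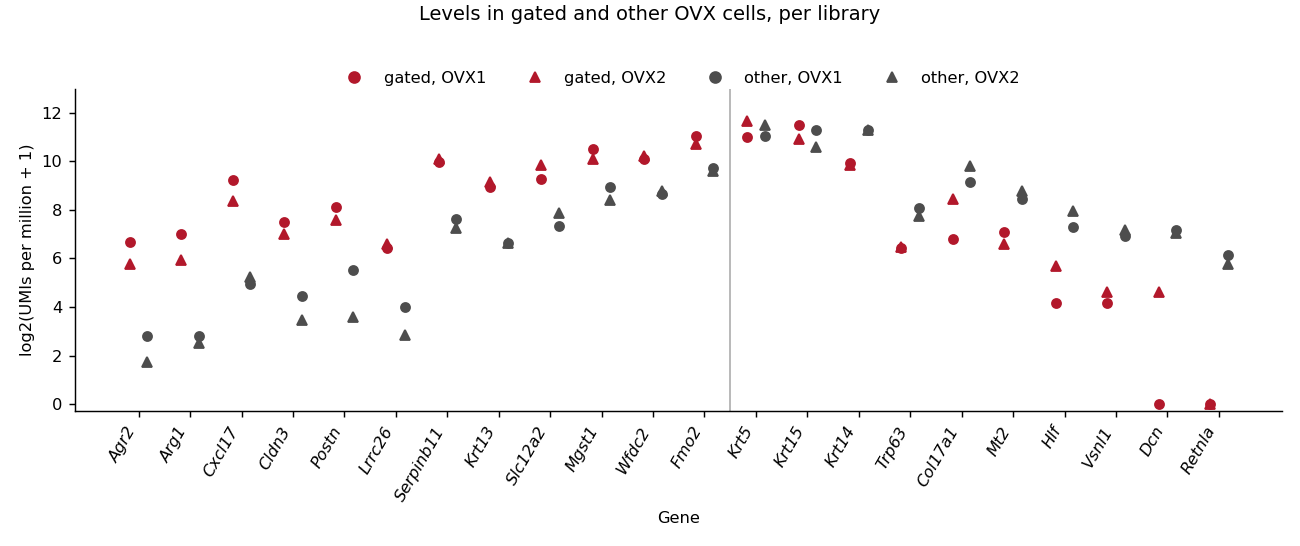
Levels of 22 genes as log2(CPM + 1) in gated cells (left of each pair) and other OVX cells (right), with circles for OVX library 1 and triangles for OVX library 2. The 12 genes left of the line were higher in gated cells in both libraries; right of it Krt5 and Krt15 overlap between the classes, Krt14 was lower in gated cells and Retnla had 0 UMIs there.

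The mucus and defence genes split into surface and defence products that were higher and gel-forming mucins that were hardly seen. Of 28 listed mucus genes 5 could be tested, 3 were higher (Muc1, Agr2 and Galnt7) and 0 lower, with a median log2 fold change of 0.94, which was the same with Muc1 at its bound. Muc1, a mucin anchored in the membrane, had 6 and 9 UMIs in gated cells of libraries 1 and 2, against 0 and 0 in the other OVX cells, and was at least 23.7-fold higher, counting 3 UMIs over the other cells together (edgeR adjusted p = 9.34e-07). Of 24 defence genes 7 could be tested, 5 were higher and 1 lower, with a median of 1.42. Wfdc2, a secreted protease inhibitor, had 1096 and 1189.8 CPM in gated cells, against 404 and 435 CPM in the other OVX cells (log2 fold change 1.42 ± 0.10, edgeR adjusted p = 2.82e-15). Il33, an alarmin stored in epithelial nuclei, had 1241 and 1085 CPM in gated cells, against 753 and 546 CPM in the other OVX cells (0.86 ± 0.10), a call that was lost after thinning (0.46, edgeR adjusted p = 0.242). The one that was lower was Lyz2, a lysozyme of myeloid cells, with 1 UMI in gated cells and 74 in the others. Of 22 genes of the secretory pathway and protein folding in the endoplasmic reticulum 2 were higher, Spcs2 and Xbp1, and 0 lower, with a median of 0.20. That count is not far from the 4.76% of all 7056 tested genes that were higher.

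Genes that seal and polarise an epithelium were higher without exception among those that passed. Of 16 tight junction and apical genes tested 9 were higher and 0 lower, with a median log2 fold change of 1.17. Cldn7, a claudin of simple epithelia, had 368 and 226 CPM in gated cells, against 57.9 and 66.1 CPM in the other OVX cells (2.08 ± 0.22, edgeR adjusted p = 5.41e-10). Epcam, an adhesion protein that binds claudins, had 1207 and 1375 CPM in gated cells, against 548 and 628 CPM in the other OVX cells (1.11 ± 0.09). Ezr, which ties the apical membrane to actin, had a log2 fold change of 0.88 and Prom1, a protein of apical protrusions, one of 1.60. DESeq2 did not call Ezr (adjusted p = 0.151) or Prom1 (0.576).

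Ion and water transport genes followed. Of 11 tested 9 were higher and 1 lower, with a median log2 fold change of 1.72. Slc12a2, the sodium, potassium and chloride cotransporter that loads secreting cells with chloride, had 625 and 934 CPM in gated cells, against 160.3 and 233 CPM in the other OVX cells (1.97 ± 0.12, edgeR adjusted p = 3.47e-17). Atp1b1, a beta subunit of the sodium pump, had 693 and 799 CPM in gated cells, against 239 and 216 CPM in the other OVX cells (1.74 ± 0.12). The sodium channel subunit Scnn1a was higher by a log2 fold change of 2.28 ± 0.40. The water channel Aqp5 had 119.8 CPM in gated cells of library 1 and 33.7 in library 2, against 11.9 and 21.8 CPM in the other OVX cells (1.72 ± 0.51, edgeR adjusted p = 0.0230). DESeq2 called neither Scnn1a (adjusted p = 0.0909) nor Aqp5 (0.462).

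Enzymes that handle foreign compounds, alcohols and retinoids come next. Of 22 tested 10 were higher and 1 lower, the glutathione transferase Gstm2, with a median log2 fold change of 0.62. The flavin monooxygenase Fmo2 had 2106 and 1658 CPM in gated cells, against 848 and 786 CPM in the other OVX cells (1.15 ± 0.09, edgeR adjusted p = 4.59e-14). The glutathione transferases Mgst1 and Gsta4 had log2 fold changes of 1.61 ± 0.10 and 1.45 ± 0.09. Cyp2f2, a cytochrome P450 of airway secretory cells, had 1866 and 1119 CPM in gated cells, against 1057 and 535 CPM in the other OVX cells (0.92 ± 0.09), so its level in gated cells of library 2 lay just above that in other cells of library 1. Rdh10, which makes retinal from retinol, had 231 and 189 CPM in gated cells, against 25.2 and 39.7 CPM in the other OVX cells (2.51 ± 0.26, edgeR adjusted p = 3.91e-10). Adh1, an alcohol dehydrogenase, was higher by a log2 fold change of 1.77 ± 0.16, which fell to 0.72 after thinning and no longer passed (edgeR adjusted p = 0.358).

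Of 24 transcription factors of luminal and stratified epithelia 10 were higher and 1 lower, with a median log2 fold change of 0.55. Foxa2, a forkhead factor of glands and endoderm, had 119.8 and 84.3 CPM in gated cells, against 19.3 and 19.4 CPM in the other OVX cells (2.27 ± 0.39, edgeR adjusted p = 2.69e-05). Runx1 had 488 and 209 CPM in gated cells, against 108 and 94.1 CPM in the other OVX cells (1.57 ± 0.20). Foxq1 was higher by 1.25, Id1 by 1.19, Tfcp2l1 by 1.09 and Ehf by 0.60 on the log2 scale, with Tfcp2l1 not called by DESeq2 (adjusted p = 0.266). After thinning Foxq1 stood at 0.45 (edgeR adjusted p = 0.626), Tfcp2l1 at 1.02 (0.351) and Ehf at 0.49 (0.133), and none of these 3 passed. The one that was lower was Trp63, which encodes the basal factor p63, with 85.6 and 87.6 CPM in gated cells, against 270.2 and 215 CPM in the other OVX cells (log2 fold change -1.43 ± 0.22, edgeR adjusted p = 2.66e-06).

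Hormone receptor genes mostly did not pass the threshold. Esr1, the oestrogen receptor, had 128 and 145 CPM in gated cells, against 144 and 212 CPM in the other OVX cells (log2 fold change -0.47 ± 0.20, edgeR adjusted p = 0.167). Pgr, the progesterone receptor and a target of oestrogen signalling, had 25.7 and 10.1 CPM in gated cells, against 17.8 and 22.6 CPM in the other OVX cells (-0.53 ± 0.67, edgeR adjusted p = 0.769). The classes overlapped for both. Of 6 genes tested in this list 0 were higher and 1 lower, the glucocorticoid receptor Nr3c1 (-0.87 ± 0.24, edgeR adjusted p = 0.0115), which DESeq2 did not call (adjusted p = 0.986) and which was lost after thinning (edgeR adjusted p = 0.579).

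**Figure D3:**
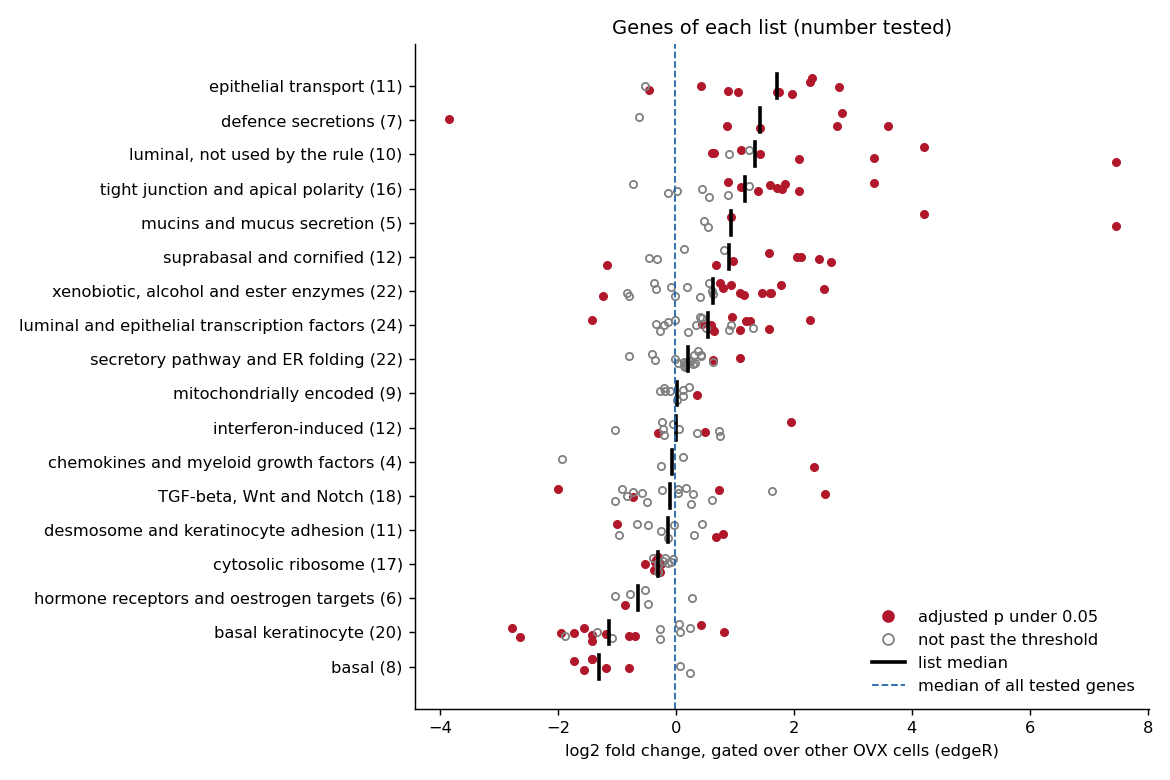
Log2 fold changes (edgeR, gated over other OVX cells) of the tested genes of each list, with filled points past the threshold, black bars at the list medians and a dashed line at the median of all tested genes. Transport, defence, luminal and tight junction lists lie to the right and the basal lists to the left; the point at 7.46 is Muc1, a fitted value against 0 UMIs that is no bound.

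Basal genes were lower in part. Of 20 genes of basal keratinocytes tested 10 were lower and 2 higher, with a median log2 fold change of -1.14. Krt14 (chromosome 11, 100203162 to 100207548) had 967 CPM in gated cells of library 1 and 923 in library 2, against 2475 and 2479 CPM in the other OVX cells, and the classes were far apart (log2 fold change -1.42 ± 0.09, edgeR adjusted p = 1.39e-16). Of 50-base words in the end of its transcript 9.53% also occur in Krt16 and Krt17. Krt5, its partner in basal filaments (chromosome 15, 101707070 to 101712898), had 2046 and 3263 CPM in gated cells, against 2104 and 2896 CPM in the other OVX cells (0.07 ± 0.08, edgeR adjusted p = 0.739). Krt15, a further basal keratin, had 2902 and 1911 CPM in gated cells, against 2515 and 1552 CPM in the other OVX cells (0.23 ± 0.08, edgeR adjusted p = 0.0620). Neither Krt5 nor Krt15 passed the threshold, and both turned to a negative log2 fold change after thinning to 400 UMIs, with -0.13 for Krt5 and -0.19 for Krt15, where the median of all tested genes was -0.13. Krt15 passed without cells of 3 or more MHC class II UMIs (0.22, edgeR adjusted p = 0.0329).

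Genes of the anchorage to the basement membrane were lower too. Col17a1, a collagen of hemidesmosomes, had 111 and 347 CPM in gated cells, against 566 and 892 CPM in the other OVX cells (-1.56 ± 0.14, edgeR adjusted p = 8.75e-12). Lamb3, a laminin chain, had 0 and 5 UMIs in gated cells, against 59 and 91 UMIs in the other OVX cells (-2.65 ± 0.51). Mt2, a metallothionein, had 137 and 94.4 CPM in gated cells, against 344 and 438 CPM in the other OVX cells (-1.95 ± 0.19). Krt17, a keratin of activated and appendage epithelium, was higher, with 1164 and 718 CPM in gated cells, against 623 and 418 CPM in the other OVX cells (0.81 ± 0.10), a call that ended after thinning (edgeR adjusted p = 0.909) and at 3 or more gate UMIs (0.143).

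Basal transcripts in gated cells can include free RNA from other cells, so they were set beside cells that should lack keratins. Here the gate on unthinned counts was kept, unlike in the thinned tests. After thinning to 400 UMIs, Krt14 was seen in 26.7% of 135 gated cells in OVX library 1 and 26.0% of 250 in library 2. The same share was 56.1% of 779 and 54.5% of 1571 in the other OVX cells, and 14.3% of 7 and 6.25% of 16 in OVX cells outside the gate with at least 5 MHC class II UMIs, a small set that leaves out the gated cell with 99 such UMIs. Krt5 was seen in 49.6% and 64.8% of gated cells, 51.5% and 62.3% of the other OVX cells, and 0 of 7 and 0 of 16 of the MHC class II cells, where exact intervals reach 41.0% and 20.6%. Without thinning Krt14 was seen in 40.0% and 43.8% of gated cells, 59.5% and 69.1% of the other OVX cells, and 15.4% and 6.25% of the MHC class II cells, and Krt5 in 66.3% and 83.7%, 54.3% and 79.2%, and 7.69% and 6.25%. Median depths before thinning were 403 and 660 UMIs in the MHC class II cells. The part of free RNA and of doublets in the gated cells was not tested.

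Gated cells also held transcripts of upper-layer keratinocytes. Serpinb11, a serpin, had 1001 and 1109 CPM in gated cells, against 197 and 153 CPM in the other OVX cells (log2 fold change 2.64 ± 0.12, edgeR adjusted p = 1.74e-21). Krt13 (chromosome 11, 100117327 to 100121566) had 496 and 566 CPM in gated cells, against 98.0 and 99.6 CPM in the other OVX cells (2.43 ± 0.15, edgeR adjusted p = 6.96e-17). Of gated cells 22.5% in library 1 and 39.0% in library 2 held at least 2 UMIs of Serpinb11 and Krt13 together, against 3.06% and 4.59% of the other OVX cells. Of 12 genes of suprabasal and cornified layers tested 7 were higher and 1 lower, with a median of 0.89. Krt6a had a log2 fold change of 2.05 and the envelope protein gene Sprr1a one of 1.58. Krtdap was the 1 that was lower, at -1.18 (edgeR adjusted p = 0.0378). DESeq2 called neither Sprr1a (adjusted p = 0.266) nor Krtdap, and Krtdap stood at 0.59 with a gate of 1 UMI. After thinning Krt6a stood at 1.14 (edgeR adjusted p = 0.506) and Sprr1a at 0.94 (0.551), and neither passed.

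By the same rule the lowest fold was that of Retnla, a secreted resistin-like protein of alternatively activated macrophages and some epithelia, with 0 UMIs in gated cells of both libraries, against 47 and 69 UMIs in the other OVX cells. That is at least 8.16-fold lower, counting 3 UMIs over the gated cells together (edgeR adjusted p = 8.46e-06). Cdh13, an unusual cadherin anchored by a lipid, had a log2 fold change of -3.10, the matrix proteoglycan Dcn of -3.03, Vsnl1 of -2.65, Timp3, an inhibitor of matrix proteases, of -2.64, Antxr1 of -2.63, Sparc of -2.62, the clock-linked factor Hlf of -2.45 and the anchoring collagen Col7a1 of -2.39. Several of these are genes of fibroblasts as well as of basal cells. Dcn, Lamb3, Timp3, Antxr1 and Col7a1 were seen in gated cells of library 2 only, with 0 UMIs in library 1. With DESeq2, Cdh13, Dcn, Lamb3, Antxr1, Sparc and Col7a1 were not called. After thinning Cdh13, Lamb3, Antxr1, Col7a1 and Vsnl1 did not pass, with edgeR adjusted p from 0.0585 to 0.265.

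Markers of most other cell types looked for were scarce in gated cells, and those of the urothelium were low in level but higher than in the other OVX cells. The summed level of 6 fibroblast markers was 0 and 37.1 CPM in gated cells, against 249 and 236 CPM in the other OVX cells, with Col1a1, Lum and Pdgfra at 0 UMIs in gated cells. The summed level of 8 myeloid markers was 916 and 0 CPM in gated cells, against 861 and 522 CPM in the other OVX cells, with Ptprc at 0 UMIs in gated cells. The genes of MHC class II had 103 UMIs in gated cells of library 1, of which 1 cell held 99, and 0 in library 2. Without cells of 3 or more such UMIs, an alternative chosen after that was seen, 688 genes passed, 595 of them among the 603. The summed level of 6 urothelial markers, which would show cells of the lower urinary tract, was 42.8 and 40.4 CPM in gated cells, against 4.45 and 7.00 CPM in the other OVX cells. Upk1a had 25.7 and 20.2 CPM in gated cells (9 UMIs in all), against 2.97 and 4.67 CPM in the other OVX cells (8 UMIs), Upk3a had 6 UMIs against 1, and Upk2 and Krt20 were at 0. Smooth muscle markers were at 0 in gated cells, as were the endothelial markers in the files. None of the urothelial markers had enough UMIs to be tested, and their part in the results was not tested.

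Signalling, interferon and mitochondrial lists had medians near that of all tested genes, while the cytosolic ribosome list had many calls of small size. Of all 7056 genes tested 8.55% were called, 4.76% higher and 3.78% lower. Of 18 genes of TGF-beta, Wnt and Notch signalling 2 were higher and 2 lower, with a median log2 fold change of -0.11. The Wnt ligand Wnt11 was higher with 10 UMIs in gated cells and 8 in the others (2.53 ± 0.72, edgeR adjusted p = 0.0168, and 0.206 with no gene filter). The Notch target Hes1 was higher too, with a log2 fold change of 0.72 ± 0.09. Without the library block neither Wnt11 (edgeR adjusted p = 0.490) nor Hes1 (0.696) passed. The lower genes were the Notch receptor Notch1 and the Notch ligand Jag2. Of 12 interferon-induced genes 2 were higher and 1 lower, with a median of 0.00. Of 17 cytosolic ribosome genes 9 were lower and 0 higher, all by small amounts around a median of -0.30. That is a larger share than the 3.78% of all 7056 tested genes that were lower. The summed level of this list was 28272 and 33708 CPM in gated cells, against 35108 and 39543 CPM in the other OVX cells. Of 9 mitochondrially encoded genes 1 was higher, with a median of 0.01.

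**Figure D4:**
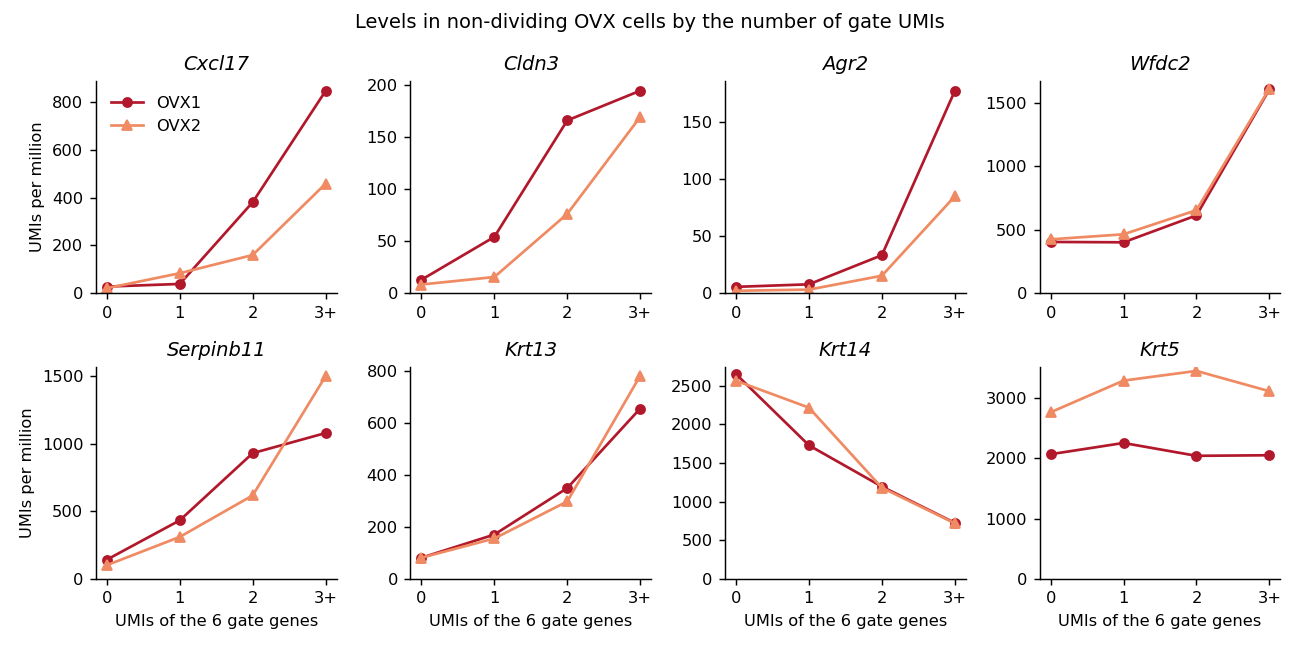
CPM of 8 genes in non-dividing OVX cells with 0, 1, 2 or at least 3 UMIs of the 6 gate genes, with 1 line per OVX library. Cxcl17, Cldn3, Agr2, Wfdc2, Serpinb11 and Krt13 are higher at 3 or more UMIs than at 0, Krt14 is lower, and Krt5 lies between 2041 and 3450 at every step.

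Levels were followed over the number of gate UMIs. Cxcl17 stood at 27.6, 38.6, 381.7 and 848.6 CPM in cells of OVX library 1 with 0, 1, 2 and at least 3 gate UMIs, and at 20.8, 83.6, 160.0 and 459.5 CPM in library 2. Krt14 stood at 2652, 1729, 1195 and 725 CPM in library 1 and at 2566, 2218, 1181 and 719 CPM in library 2 over the same steps. Wfdc2 was level between 0 and 1 gate UMI, at 404 and 401 CPM in library 1 and 425 and 465 CPM in library 2, and reached 1609 and 1614 CPM at 3 or more. For these 3 genes the cells at 2 gate UMIs, which make up most of the gated cells, lay between the cells outside and those with 3 or more. Deeper cells reach a higher sum more often, and the part of depth in these steps was not tested.

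Among the gated cells, those with a UMI of Ltf, Pigr or Gabrp, 94 in library 1 and 147 in library 2, were set beside the 66 and 104 with keratin UMIs alone, as a description. Of 3775 genes with at least 20 UMIs 1954 had the same direction in both libraries, which is near the number that unrelated directions would give. The highest and lowest ratios below were picked from these 1954 genes, so their agreement between libraries was part of the choice. The intervals cover counting error only. Agr2 had 111 and 81.2 CPM in cells with a secretory UMI, against 89.5 and 8.92 CPM in cells without, a pooled ratio of 2.81 (counting interval 1.04 to 9.46). Cldn3 had 194 and 184 CPM in cells with a secretory UMI, against 157 and 35.7 CPM in cells without, a pooled ratio of 2.66 (1.36 to 5.69). For both genes the gap was small in library 1, and the pooled ratio rests on library 2. Krt13 had a pooled ratio of 2.04 (1.49 to 2.84), Cxcl17 of 1.95 (1.36 to 2.86), Serpinb11 of 1.91 (1.53 to 2.40) and Wfdc2 of 1.86 (1.51 to 2.30). Krt14 went the other way with 721 and 796 CPM in cells with a secretory UMI, against 1365 and 1133 CPM in cells without, a ratio of 0.646 (0.527 to 0.793). The highest ratios were those of Actr1b and Kcnj16, at 11.6 each with intervals of 1.84 to 482, followed by Camk2n1 at 7.94 (2.52 to 40.2), Rnf5 and Slco1a5, all 5 against 0 to 2 UMIs per library in cells without. The lowest were those of Tmem219, Gfm1, Gm19620, Plekhh3 and Pop5, from 0.244 to 0.262.

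Set against WT cells with at most 2 dividing-cell UMIs, 2063 in WT library 1 and 1532 in WT library 2, gated cells differed both in the kind of cell and by ovariectomy, and the 2 cannot be told apart. Of 8830 genes tested 394 passed (4.46%), with 246 higher (2.79%) and 148 lower (1.68%) in gated cells. The median log2 fold change of all tested genes was -0.07. Without OVX library 1 the count was 237, without OVX library 2 108, without WT library 1 806 and without WT library 2 694. Both OVX libraries carried more Malat1, a nuclear RNA, and more mitochondrial transcripts than the WT libraries: Malat1 took 2.79% and 2.05% of UMIs in gated cells, against 0.327% and 0.458% in the WT cells outside the gate, and the median mitochondrial share was 8.51% and 8.97% in gated cells, against 4.18% and 4.02%. The part of cell quality in this comparison was not tested.

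Genes that WT cells lacked or hardly held led the comparison, and some of them were also present in the other OVX cells. Cxcl17 had 168 UMIs in gated cells and 0 in WT cells of either library. With 3 UMIs counted over the WT cells together, it was at least 673-fold higher (edgeR adjusted p = 3.89e-05). On the same count Stxbp6 was at least 168-fold higher, 5330417C22Rik at least 144-fold and the interferon-induced Ifit1 at least 124-fold. Agr2 had 0 UMIs in WT as well and was at least 112-fold higher. Cldn3 had 1 UMI in WT, a pooled ratio of 709 (counting interval 122 to 28477), and Foxa2 had 3, a ratio of 156 (49.7 to 790). Fmo2 had 2106 and 1658 CPM in gated cells, against 4.15 and 2.94 CPM in WT cells (log2 fold change 8.82 ± 0.66, edgeR adjusted p = 1.86e-05). The other OVX cells held Fmo2 too, at the levels given above. Without thinning it was seen in 26.9% of them in OVX library 1 and 35.8% in library 2, against 64.4% and 64.9% of gated cells. The gap of Fmo2 to WT is thus not particular to gated cells. Arg1 depended on the libraries used: with 128 and 60.7 CPM in gated cells, against 57.9 and 23.6 CPM in WT cells, it did not pass (0.97 ± 0.61, edgeR adjusted p = 0.487), but it passed without WT library 1 (1.72, edgeR adjusted p = 0.0296).

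Genes of suprabasal and cornified layers were among the lowest, beside Mt4 and Gap43, which were not on the list of those layers. Krt6b, a keratin of activated stratified epithelium, had 0 UMIs in gated cells, against 7107 and 2340 UMIs in WT cells, and was at least 262-fold lower, counting 3 UMIs over the gated cells together (edgeR adjusted p = 3.92e-05). The metallothionein Mt4, the cysteine protease inhibitor Csta1, Gap43 and the desmosomal cadherin Dsg1b had 0 UMIs in gated cells too and were at least 65.6-fold, 47.0-fold, 43.7-fold and 15.5-fold lower. Of 50-base words in the end of the Dsg1b transcript 11.3% also occur in other genes, and its call ended without OVX library 2 (edgeR adjusted p = 0.0520). Of 27 genes of suprabasal and cornified layers tested 18 were lower and 1, Serpinb11, was higher, with a median log2 fold change of -4.41, or -3.39 with the genes at 0 set at their bounds. The summed level of this list was 5290 and 4617 CPM in gated cells and 26011 and 21885 CPM in WT cells. In the other OVX cells it was 2748 and 2003 CPM, so the low level beside WT is not particular to gated cells. Serpinb11 had 1001 and 1109 CPM in gated cells, against 127 and 116 CPM in WT cells (2.99 ± 0.48, edgeR adjusted p = 0.00180), a call that ended without OVX library 2 (edgeR adjusted p = 0.0795).

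Krt14 and Krt5 were lower in gated than in WT cells. The other OVX cells were below WT in basal genes as well. The summed level of the basal keratinocyte list was 10417 and 10199 CPM in gated cells, 12389 and 12860 CPM in the other OVX cells and 56949 and 38388 CPM in WT cells. Krt14 had 967 and 923 CPM in gated cells, against 20096 and 18081 CPM in WT cells (log2 fold change -4.47 ± 0.58, edgeR adjusted p = 0.000307). Krt5 had 2046 and 3263 CPM in gated cells, against 23572 and 6213 CPM in WT cells (-2.61 ± 0.66, edgeR adjusted p = 0.0383), but did not pass without OVX library 1 (0.192) or without OVX library 2 (0.171). Krt13 had 496 and 566 CPM in gated cells, against 1722 and 480.0 CPM in WT cells, which overlap (-1.18 ± 0.58, edgeR adjusted p = 0.334). It passed without WT library 2 (-1.84, edgeR adjusted p = 0.00494), while without WT library 1 the value was 0.0043. Igfbp2, a binding protein of insulin-like growth factors, had 1 UMI in gated cells and 5534 in WT cells, a level 460-fold lower with a counting interval of 82.6 to 18190. Pgr had 25.7 and 10.1 CPM in gated cells, against 166 and 113 CPM in WT cells (-3.30 ± 0.67, edgeR adjusted p = 0.0106), and did not pass without OVX library 1 (0.0509) or library 2 (0.429) or after thinning (0.286). Esr1 had 128 and 145 CPM in gated cells, against 105 and 75.8 CPM in WT cells (0.47 ± 0.49, edgeR adjusted p = 0.731).

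**Figure D5:**
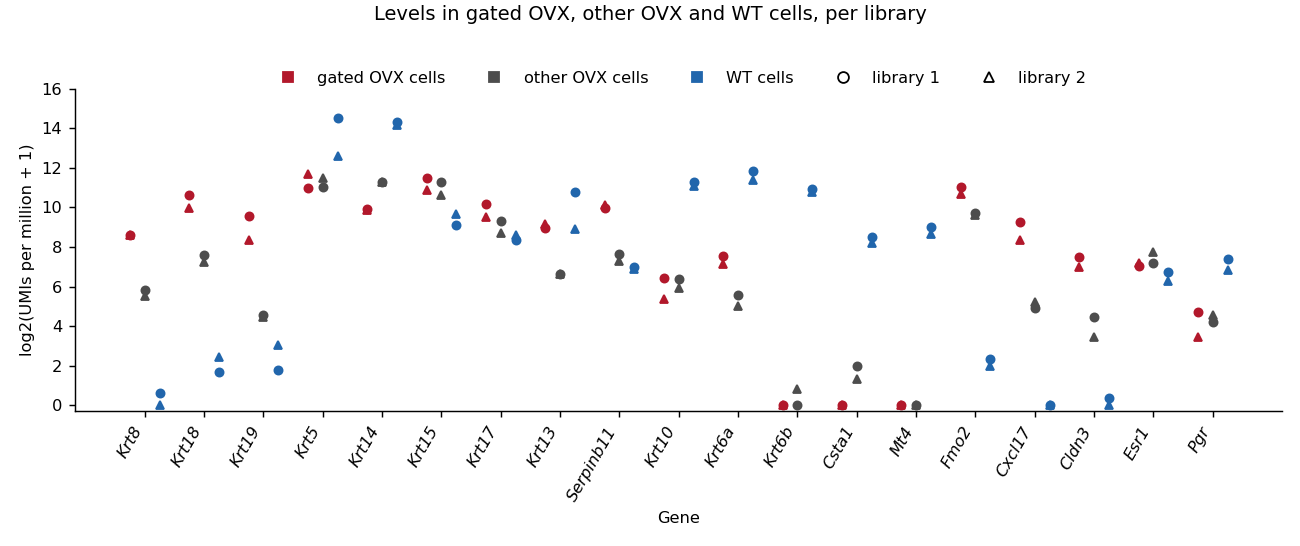
Levels of 19 genes as log2(CPM + 1) in gated OVX cells, other OVX cells and WT cells (left to right for each gene), with circles for library 1 and triangles for library 2 of each group. Krt8, Krt18 and Krt19 chose the cells; Krt14 was lowest in gated cells and highest in WT, Krt6b and Mt4 had 0 UMIs in gated cells, and Cxcl17 had 0 in WT.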

How the data were processed

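Drop-seq UMI count matrices of 4 libraries were used as deposited; per the labels' protocols, vaginae were digested overnight in pronase and DNase and the epithelium was squeezed out. The submitters' processing notes name Seurat 2 and mm10, and the sources used here do not give the aligner or annotation. All members, gene lists and tests were chosen with earlier results of these data known. Cells were kept and gated as stated above, and their raw UMI counts were added up within each class of each library. Depth per library is given above; intervals cover counting error only.

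Gated cells were compared with other OVX cells with the library as a block, and with WT cells without a block, by edgeR 4.0.16 (quasi-likelihood test, TMM scaling, filterByExpr, Benjamini-Hochberg threshold 0.05; R 4.3.3, limma 3.58.1). The 16 gate genes were left out of the tests. DESeq2 1.42.0 was an alternative. The deviations of gated and other cells of 1 library correlated at 0.469, and the source of this correlation was not tested. On simulated counts for the comparison with other OVX cells (6513 genes), 80.6% of 4-fold and 97.0% of 8-fold changes were recovered, and for WT (7923 genes) 72.6% and 94.8%. The simulation gave every gene the same fixed dispersion and no library effect beyond depth, so these shares do not measure the power of the real comparisons. Named genes were the gate genes, Krt5, Krt14, Krt13, Esr1 and Pgr, the 15 highest and 10 lowest by fold among called genes of the same sign in each library with at least 50 CPM in a class (5 and 5 against WT, and by ratio within the gate at 20 UMIs), and the up to 4 members of each list highest in gated cells; other list members were named after their values were seen. Figures were drawn with matplotlib 3.10.9. Some named genes are not reported here.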

Additional observations from a re-analysis of the deposited data

Results flagged for a closer look

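Gate transcripts were also present outside the gated cells. Of dividing OVX cells, with more than 2 UMIs of the 10 dividing-cell genes, 21.2% (11 of 52; 1 of 9 in library 1 and 10 of 43 in library 2) held at least 2 gate UMIs, against 1.02% (14 of 1371) of dividing WT cells. Of OVX barcodes dropped for few genes or many mitochondrial UMIs, 1.25% (19 of 1520; 11 of 1427 and 8 of 93) held at least 2, against 0 of 34 in WT, where the exact 95% interval reaches 10.3%. Both were picked out because they lie in cells that the comparisons above do not use, and their source was not tested.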

How the results depend on the processing

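Against other OVX cells, 603 genes passed (55.7% of them higher), against 134 with DESeq2 (70.1% higher), 50 with no replicate block (86.0%), 191 after thinning (48.2%), 401 with keratins alone in the gate and 395 at 10% mitochondrial UMIs; the other settings gave counts within 1.5 times, but with no gene filter the split was 223 higher and 452 lower. Leaving out an OVX library there leaves no residual degrees of freedom, so it gave values only. Against WT cells, 394 passed, against 660 with no gene filter (330 higher and 330 lower), 175 after thinning and 108 to 806 without 1 library; with the replicate number as a block 297 passed. Same-numbered OVX and WT libraries deviated oppositely (r = -0.345), and the crossed pairing, chosen after seeing the data, gave 1574. With the same-numbered block Krt5 did not pass (edgeR adjusted p = 0.114). The mean gate share was 28.3% in OVX and 2.30% in WT at 1 UMI, 5.54% and 0.0755% at 3, 7.71% and 0.0419% with keratins alone, and 6.61% and 0.0939% after thinning; single libraries ran from 10.2 to 13.2% in OVX and from 0.352 to 0.537% in WT. Signs turned for Krt15 after thinning (-0.19), Krt5 at 3 gate UMIs (-0.040), with no gene filter (-0.10) and after thinning (-0.13), and Krtdap at 1 gate UMI (0.59), and against WT for Arg1 at 10% mitochondrial UMIs (-0.027) and Krt13 without WT replicate 1 (0.0043, and -1.84 without WT replicate 2, where it passed, as it did at -0.96 with the crossed pairing); the cause was not tested. Depth limits the genes with few UMIs in the 411 gated cells.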
